A study of Mus musculus with 7 samples.

Results

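The endothelial anticoagulant and vascular tone genes are 9 genes chosen by symbol: Thbd, Procr, Tfpi, F3, Plat, Nos3, Edn1, Ece1 and Plvap. All 9 were found, each once, among the 21176 genes of the deposited table. They were followed in follicular dendritic cells (FDCs), the stromal cells of the B-cell follicle, taken by cell sorting from the popliteal nodes of male mice aged 8 to 12 weeks that had not been immunized. The 7 RNA-seq samples were 4 wild-type (WT) and 3 labelled Ngfr KO, for the low-affinity neurotrophin receptor gene Ngfr. Each sample was a pool of nodes from several animals, so the spread below is between pools. How the Ngfr allele was made and which cells lack it are not given in the labels.

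Resting endothelium keeps blood fluid and sets vessel calibre. Thrombomodulin (Thbd) binds thrombin and turns it to the activation of protein C, which the endothelial protein C receptor (Procr) presents; tissue factor pathway inhibitor (Tfpi) blocks the start of clotting by tissue factor (F3). Tissue plasminogen activator (Plat) starts fibrinolysis. Endothelial nitric oxide synthase (Nos3) makes the relaxing mediator nitric oxide, whereas the constrictor peptide endothelin (Edn1) is released from its precursor by endothelin-converting enzyme (Ece1). Plvap forms the diaphragms of endothelial fenestrae and caveolae. The flow-induced transcription factor Klf2 is known to raise Thbd and Nos3 and to lower Edn1 in cultured endothelium.

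The mean of all 9 genes was lower in Ngfr KO. Thbd, Nos3, Ece1, Edn1 and Plvap passed the test, with means 2.55-fold to 5.63-fold lower. Of all tested genes, 34.2% passed it, and 15.8% passed as lower in Ngfr KO. Nos3 entered the test through its WT samples alone. The Edn1 groups overlapped, and its call was lost in 8 of 15 alternatives, edgeR among them. Procr, Tfpi and Plat did not pass the test, and F3 was too low for the filter. The endothelial defining markers moved with them: 15 of 16 tested markers were lower in Ngfr KO, and their summed value was 2.61-fold lower. Set against that sum, the mean share of Plvap was 15.6% in both genotypes, an equality that other denominators did not keep. Procr and Tfpi took a larger share in Ngfr KO, as did 78.9% of all tested genes. Nos3 took a smaller share, a separation that depended on the markers chosen.

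Values are the authors' TMM-scaled signal (trimmed mean of M values), with no gene length divided out. They are whole reads multiplied by 1 factor per sample, and a value of 1 stands for 230 to 295 reads. Libraries held 17244925 to 18873542 reads in WT and 20741770 to 21538400 in Ngfr KO, so every Ngfr KO library was the deeper. Ngfr itself ranged from 0.377 to 1.30 over the WT samples and from 0.184 to 0.353 over the Ngfr KO samples (log2 difference -0.52, SE 0.18, limma adjusted p = 0.0431), and that call was lost under 13 of 15 alternatives. The test, limma on log2(value + 1) with Benjamini-Hochberg adjustment, ran on the 8326 genes that reached a value of 1 in 3 or more samples, and an adjusted p under 0.05 was a call. It called 34.2% of them, 15.8% lower and 18.3% higher in Ngfr KO. Log2 differences (log2 changes) are Ngfr KO minus WT on that scale, which understates the change of genes near or below a value of 1. Exact p-values are two-sided permutation tests of the values over the 35 ways to split the samples, with 0.0286 as the smallest possible.

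Of the 9 genes, 5 were called lower, 3 were tested and not called, and F3 failed the filter and was fitted as an added gene. Nos3 passed the filter through its WT samples alone, so its call on this scale is not independent of the filter. Ece1 and Edn1 also needed WT samples to pass, since not all their Ngfr KO samples reached a value of 1. In 5 of the 9 genes the highest Ngfr KO sample was under the lowest WT sample. Among all tested genes 18.3% were separated that way, 22.6% the opposite way and 40.9% in either direction. The 5 were Thbd, Procr, Nos3, Ece1 and Plvap. edgeR's quasi-likelihood test on the recovered reads fitted all 9 and called 4, Thbd, Nos3, Ece1 and Plvap, where 6.55% of its 16751 genes were called lower, 8.67% higher and 15.2% in either direction.

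**Figure D1:**
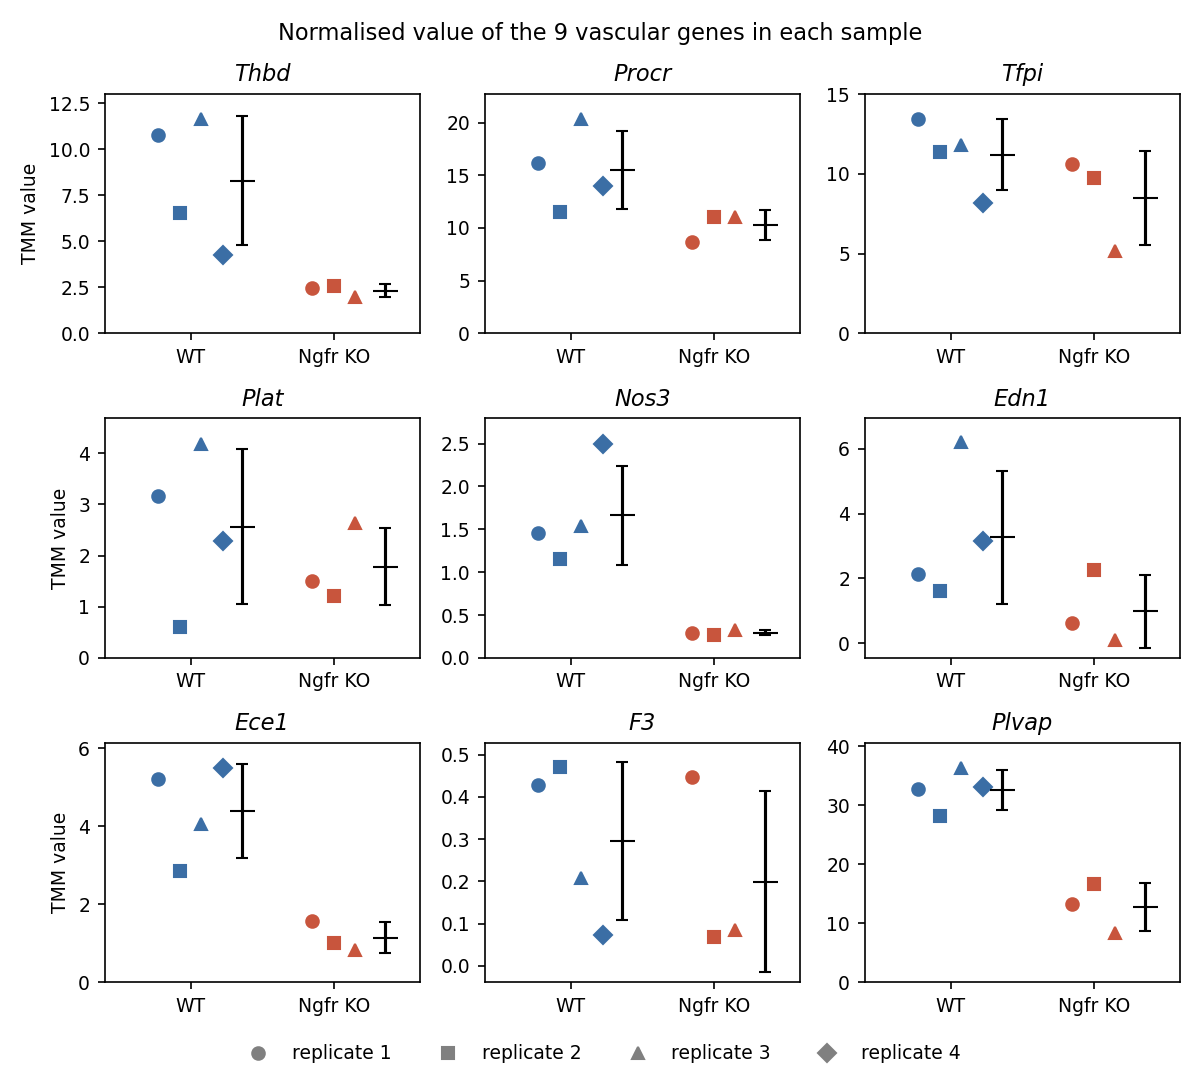
TMM-scaled value (linear axes) of each of the 9 genes in the 4 WT (blue) and 3 Ngfr KO (red) samples, with the replicate number as the symbol and the mean with its SD in black. The groups are apart for Thbd, Procr, Nos3, Ece1 and Plvap, and for Procr the gap is narrow, 11.1 against 11.5.

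The upstream sequences of the endothelin pair are shown because ligand and converting enzyme were both called lower. Krüppel-like factors such as Klf2, described below, are known to recognise CACCC-type elements. The RefSeq promoter table (GRCm38.p6) matched 5 of the 9 genes, Procr, Tfpi, F3, Edn1 and Ece1. It was searched for CACCC on both strands (CACCC or GGGTG) over the 250 bases before each start. Capitals mark the matches, and the sequences run 5′ to 3′ on the strand of the gene, up to the base before the start.
Edn1, plus strand, chr13:42301226-42301475: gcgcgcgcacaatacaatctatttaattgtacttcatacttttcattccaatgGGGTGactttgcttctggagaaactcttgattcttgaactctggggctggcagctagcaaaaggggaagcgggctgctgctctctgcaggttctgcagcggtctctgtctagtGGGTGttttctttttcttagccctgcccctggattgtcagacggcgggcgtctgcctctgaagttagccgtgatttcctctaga
Ece1, plus strand, chr4:137861987-137862236: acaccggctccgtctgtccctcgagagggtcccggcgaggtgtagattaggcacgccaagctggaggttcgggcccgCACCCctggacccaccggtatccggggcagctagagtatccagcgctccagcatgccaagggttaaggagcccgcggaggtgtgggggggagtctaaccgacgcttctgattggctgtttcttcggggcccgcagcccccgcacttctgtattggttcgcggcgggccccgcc
Edn1 held 2 matches, both on the opposite strand, beginning 197 and 84 bases before the start. The most upstream of the 4 Ece1 windows held 1, beginning 173 bases before the start. The second overlaps it and held the same 1, the third held 2, and the most downstream held none. F3, Procr and Tfpi, none of them called, held matches too. F3 held 3, Procr 1 and each Tfpi window 1. Such letters are common: 52.0% of the 32851 windows in the table held at least 1 match. Of the 9 windows of the 5 matched genes, 8 did. These windows are few and include overlapping ones, and the difference was not tested. A match is a run of letters and no measure of binding.

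Thbd, on the protein C side of the anticoagulant surface (ENSMUSG00000074743, chromosome 2, 148404466 to 148408188, minus strand, GRCm38, GENCODE M21), had values of 10.8, 6.51, 11.6 and 4.24 in WT replicates 1 to 4 and of 2.44, 2.57 and 1.95 in Ngfr KO replicates 1 to 3. The WT samples varied 2.74-fold among themselves, yet the lowest of them was above every Ngfr KO sample. Means were 8.29 ± 3.50 (SD, n = 4) and 2.32 ± 0.33 (SD, n = 3), a log2 difference of -1.40 (SE 0.27, limma adjusted p = 0.00267). The exact permutation test gave p = 0.0571. Thbd was called under all 15 alternatives, with log2 differences from -1.76 to -0.82.

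Procr, the receptor that hands protein C to the thrombin and thrombomodulin complex (ENSMUSG00000027611, chromosome 2, 155751117 to 155755471, plus strand), behaved differently in size. Its values were 16.2, 11.5, 20.3 and 14.0 in WT and 8.62, 11.1 and 11.1 in Ngfr KO. No sample crossed between the groups, but WT replicate 2 was close to the 2 higher Ngfr KO samples. The log2 difference was -0.53 (95% interval -0.97 to -0.09, limma adjusted p = 0.0582), which missed the threshold. Without WT replicate 2 the limma adjusted p was 0.0411, and with quantile normalization it was 0.0153 at a log2 difference of -0.67.

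Tfpi, the inhibitor of the initiating step (ENSMUSG00000027082, chromosome 2, 84432855 to 84476775, minus strand), had values of 13.4, 11.4, 11.8 and 8.15 in WT and 10.6, 9.75 and 5.15 in Ngfr KO. The groups overlapped, because 2 Ngfr KO samples lay above WT replicate 4. The log2 difference was -0.40 (95% interval -0.91 to 0.12, limma adjusted p = 0.208), and no alternative called it. Without Ngfr KO replicate 3 it was -0.11. Its target F3 (ENSMUSG00000028128, chromosome 3, 121723537 to 121735048, plus strand) was covered by 19 to 126 reads in WT and 20 to 123 reads in Ngfr KO. F3 varied 6.51-fold within WT and 6.58-fold within Ngfr KO, and the genotypes differed by less than that spread (limma adjusted p = 0.611).

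Plat, the fibrinolytic activator (ENSMUSG00000031538, chromosome 8, 22757727 to 22782844, plus strand), had values of 3.17, 0.610, 4.19 and 2.28 in WT and 1.51, 1.21 and 2.63 in Ngfr KO. WT replicate 2 was the lowest of all 7 samples, and the remaining WT samples enclosed the highest Ngfr KO sample. The log2 difference was -0.27 (95% interval -0.98 to 0.45, limma adjusted p = 0.544). Plat was not called under any of 15 alternatives, but 1 library could move its value: it was -0.61 without WT replicate 2 (limma adjusted p = 0.0733), -0.47 without Ngfr KO replicate 3, -0.15 without WT replicate 1, -0.12 without Ngfr KO replicate 2 and -0.04 without WT replicate 3.

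Nos3 (ENSMUSG00000028978, chromosome 5, 24364810 to 24384474, plus strand) differed most between the genotypes in fold. Its values were 1.46, 1.15, 1.54 and 2.50 in WT and 0.287, 0.271 and 0.328 in Ngfr KO, from 308 to 655 and from 79 to 82 reads. The Ngfr KO samples were within 1.21-fold of each other, and all lay far below the WT samples. Means were 1.66 ± 0.58 (SD, n = 4) and 0.295 ± 0.030 (SD, n = 3), 5.63-fold lower, with an exact permutation p of 0.0286. The log2 difference was -1.02 (SE 0.17, limma adjusted p = 0.00145), and -2.43 with edgeR (SE 0.34, edgeR adjusted p = 0.00395), which adds no pseudocount of that size. Atg9b lies on the opposite strand and shares 294 exonic bases with Nos3, 7.12% of its exon length. Atg9b values were at most 0.0234 in any sample, so reads assigned to it were few. The annotated antisense genes Gm15587, within Nos3, and Gm47118, within Edn1, had no values, so signal from them is not known. Whether the counting used strand is not given in the sources used here.

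Edn1, the ligand of the endothelin pair (ENSMUSG00000021367, chromosome 13, 42301476 to 42307990, plus strand), was the least even of the called genes. Its values were 2.13, 1.61, 6.21 and 3.15 in WT and 0.617, 2.25 and 0.0961 in Ngfr KO. Ngfr KO replicate 2 lay within the WT range, and the 3 Ngfr KO samples spanned 23.4-fold. The log2 difference was -1.14 (SE 0.37, limma adjusted p = 0.0318), but the exact permutation p was 0.171 and the edgeR adjusted p was 0.207. The call held under 7 of 15 alternatives. It was lost without WT replicate 3 (limma adjusted p = 0.0737), WT replicate 4 (0.0625), Ngfr KO replicate 1 (0.0836) or Ngfr KO replicate 3 (0.139).

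Ece1, the enzyme that releases endothelin (ENSMUSG00000057530, chromosome 4, 137862237 to 137965229, plus strand), had values of 5.20, 2.84, 4.06 and 5.48 in WT and 1.59, 1.01 and 0.833 in Ngfr KO. All WT samples lay above all Ngfr KO samples. Means were 4.40 ± 1.20 (SD, n = 4) and 1.14 ± 0.39 (SD, n = 3), a log2 difference of -1.32 (SE 0.20, limma adjusted p = 9.56e-04). Ece1 was called under all 15 alternatives.

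Plvap (ENSMUSG00000034845, chromosome 8, 71497765 to 71511752, minus strand) was the most abundant of the 9 genes per length of transcript. Its values were 32.8, 28.1, 36.2 and 33.1 in WT and 13.2, 16.6 and 8.44 in Ngfr KO. The WT samples were within 1.29-fold of each other, the tightest of the 9 genes, and the Ngfr KO samples within 1.97-fold. Means were 32.5 ± 3.3 (SD, n = 4) and 12.8 ± 4.1 (SD, n = 3), a log2 difference of -1.33 (SE 0.22, limma adjusted p = 0.00137), with an exact permutation p of 0.0286. Plvap was called under all 15 alternatives.

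**Figure D2:**
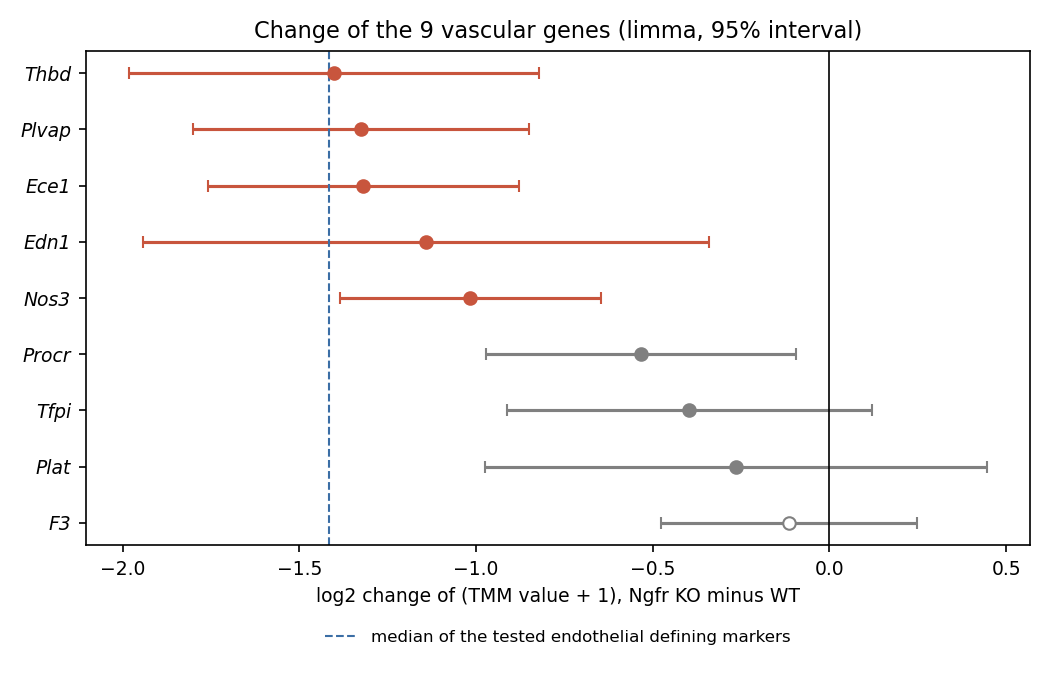
Log2 change of (TMM value + 1), Ngfr KO minus WT, with the limma 95% interval, for the 9 genes. Red points were called lower, grey points were not called, the open point is F3, which failed the filter, and the dashed line is the median of the tested endothelial defining markers, -1.42. Thbd, Plvap, Ece1, Edn1 and Nos3 lie at -1.02 or below, and the other genes lie at -0.53 or above.

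Levels of different genes were compared as TMM value per kilobase of exon (union of the GENCODE M21 exons). In WT the order was Plvap at 16.4 ± 1.7, Procr at 7.63 ± 1.84, Thbd at 2.23 ± 0.94, Tfpi at 2.05 ± 0.41, Edn1 at 1.53 ± 0.96, Ece1 at 0.830 ± 0.227, Plat at 0.411 ± 0.243, Nos3 at 0.402 ± 0.141 and F3 at 0.117 ± 0.074 (SD, n = 4). Plvap and Procr stood apart from their neighbours in every WT sample, as did Nos3 from F3, while the ranges of Thbd, Tfpi, Edn1, Ece1, Plat and Nos3 overlapped from each to the next. In Ngfr KO the highest were Plvap at 6.42 ± 2.07, Procr at 5.05 ± 0.70 and Tfpi at 1.56 ± 0.54 (SD, n = 3). The ranges of Plvap and Procr overlapped there, and Tfpi stood above Thbd, at 0.623 ± 0.089, in every sample. Nos3 was the last, at 0.0715 ± 0.0071 per kilobase, with F3 overlapping it.

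The endothelial defining markers give the background against which these vascular genes are read. The 18 markers, among them Cdh5, Pecam1, Kdr, Cldn5 and Erg, had sums of 187 to 240 over the WT samples and 64.9 to 91.6 over the Ngfr KO samples. Of the 16 tested, 15 were called lower and none higher, with a median log2 difference of -1.42 against 0.02 over all tested genes. Of the 18, only Sox17 was at 0 in any sample. The lymphatic endothelial markers summed to 73.7 to 129 and 21.7 to 55.4, with 4 of 5 tested called lower. Most FDC markers went the other way, with sums of 1887 to 5263 and 8263 to 10830. Of 22 tested, 18 were called higher, 1 was called lower and 3 were not called. Markers of other cells had smaller sums than the FDC markers. Pericyte and smooth muscle markers had sums of 23.5 to 61.5 over WT and 48.2 to 80.1 over Ngfr KO samples. Fibroblastic reticular markers had 32.1 to 76.9 and 83.5 to 122, in Ngfr KO not below the endothelial sums. Platelet markers had sums of 7.91 to 14.6 and 4.06 to 8.26, B cell markers 10.8 to 17.1 and 7.90 to 26.4, T cell markers 2.45 to 10.4 and 3.13 to 9.65, and myeloid markers 2.04 to 9.52 and 6.50 to 37.3. The fibroblastic reticular sums were apart and higher in Ngfr KO, and the other 5 overlapped. The part of these cells in the results was not tested. In these bulk samples, fewer endothelial cells and less of these RNAs per endothelial cell cannot be told apart.

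Each vascular gene was therefore also expressed as a percent of the summed endothelial marker values of its own sample. Plvap took 13.6%, 15.03%, 16.1% and 17.6% of the sum in WT and 14.5%, 19.4% and 13% in Ngfr KO, with means of 15.6 ± 1.7 (SD, n = 4) and 15.6 ± 3.4 (SD, n = 3). By this sum the means differed by less than the spread between samples. With Cdh5 alone or the geometric mean of the markers as denominator, the log2 ratio of Plvap was 0.32 or 0.44, against -0.01. The groups overlapped with each denominator. Thbd took 2.26% to 5.16% across the WT samples and 2.66% to 3.01% across the Ngfr KO samples, with overlap (exact permutation p = 0.257). Ece1 took 1.52% to 2.91% and 1.18% to 1.73%, and Edn1 took 0.858% to 2.76% and 0.148% to 2.63%, also with overlap.

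Procr and Tfpi took a larger share in Ngfr KO. Procr rose from 7.34% ± 1.24 (SD, n = 4) to 13.1% ± 3.8 (SD, n = 3), with every Ngfr KO sample above every WT sample (exact permutation p = 0.0286). Tfpi rose from 5.32% ± 0.74 (SD, n = 4) to 10.3% ± 2.1 (SD, n = 3), again with no overlap (exact permutation p = 0.0286). Because the denominator itself fell, 78.9% of all tested genes were higher by this measure with no overlap, and 79.8% were separated in either direction, so this rise was shared with most genes. Plat (1.18% ± 0.64 and 2.37% ± 1.46) and F3 (0.140% ± 0.094 and 0.232% ± 0.222) had overlapping groups.

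Nos3 was the only one of the 9 genes whose share was lower in every Ngfr KO sample. It took 0.608%, 0.616%, 0.683% and 1.33% in WT and 0.313%, 0.318% and 0.506% in Ngfr KO. By this measure 0.925% of all tested genes were lower with no overlap, and the exact permutation test for Nos3 gave p = 0.0857. The separation depended on the denominator: with Cdh5 alone, or with the geometric mean of the markers, the Nos3 groups overlapped, at log2 ratios of -0.72 and -0.60 against -1.05 with the sum. Ecscr, the largest term of the sum, was 46.7 ± 9.0 for WT (SD, n = 4) against 33.1 ± 4.2 for Ngfr KO (SD, n = 3) and was the tested marker that was not called.

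**Figure D3:**
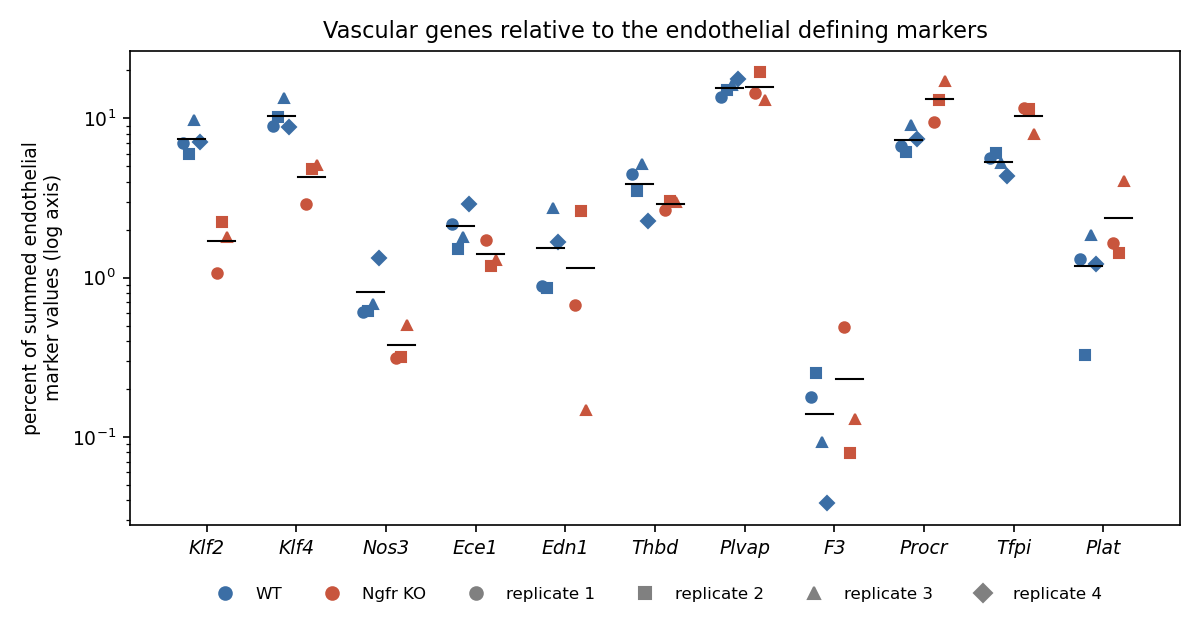
Value of each gene as a percent of the summed endothelial defining markers of the same sample, on a log axis, for WT (blue) and Ngfr KO (red); symbols give the replicate and black lines the means. Genes are ordered from the largest loss of share (left) to the largest gain (right). Klf2 goes from 7.44% to 1.70%, the Plvap mean is 15.6% in both groups with this denominator, and Procr and Tfpi rise.

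Klf2 and Klf4, flow-responsive factors upstream of Thbd and Nos3, had lower shares of the marker sum in Ngfr KO. Shares lower with no overlap were found for 0.925% of all tested genes. Klf2 is also known to lower Edn1, and Edn1 was called lower (log2 difference -1.14), a call held under 7 of 15 alternatives. The Thbd shares overlapped (exact permutation p = 0.257). Whether Klf2 or Klf4 had a part in any of these changes was not tested. Klf2 was 15.8 ± 4.7 for WT (SD, n = 4) against 1.35 ± 0.49 for Ngfr KO (SD, n = 3), and its share of the endothelial marker sum went from 7.44% ± 1.6 to 1.70% ± 0.58 with no overlap (exact permutation p = 0.0286). The share of Klf4 went from 10.3% ± 2.1 to 4.27% ± 1.20 with the same exact permutation p. In alternatives chosen after seeing the data, the log2 ratio of Klf2 was -1.84 with Cdh5 alone and -1.72 with the geometric mean against -2.17 with the sum, with the groups apart in each. That of Klf4 was -0.97, with overlap, and -0.85, against -1.29. Of the 6 tested genes of the Klf2 pathway list, 3 were called lower, Klf2, Klf4 and the MEF2 factor Mef2a (log2 difference -0.75, limma adjusted p = 0.00958). The kinase genes Map3k3 and Map2k5 were not called. Mef2c, at a log2 difference of -0.33, was not called either.

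The other genes of coagulation moved in both directions. Of the 11 tested genes in the anticoagulant and coagulation list, 6 were called lower and 1 higher (median log2 difference -0.70). With edgeR, 5 of 19 were called lower and 2 higher. Coagulation factor VIII (F8), which endothelium makes, had values of 66.5 ± 32.8 for WT (SD, n = 4) against 17.7 ± 11.4 for Ngfr KO (SD, n = 3), a log2 difference of -1.93 (limma adjusted p = 0.00932). Gas6, a vitamin K-dependent ligand of TAM receptors, went from 5.27 ± 0.94 to 0.851 ± 0.538, a log2 difference of -1.80 (limma adjusted p = 3.15e-04). Prothrombin (F2) was the one that limma called higher, from 0.459 ± 0.154 to 2.15 ± 0.70, a log2 difference of 1.09 (limma adjusted p = 0.00115). F2 passed the filter through its Ngfr KO samples alone, so without any 1 of them limma called no gene of the list higher. Without that filter, edgeR gave F2 an adjusted p of 0.00492. The other gene that edgeR called higher was Tfpi2, which failed the filter. Its mean went from 0.600 ± 0.096 to 1.59 ± 0.69 (edgeR adjusted p = 0.0178). Thbd followed F8 and Gas6 in the size of its change among the genes called lower.

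Around Plat, the 8 tested genes of fibrinolysis split evenly, with 2 called higher and 2 lower. Serpine2, an inhibitor of plasminogen activators and of thrombin, fell from a WT mean of 2.49 ± 1.05 (SD, n = 4) to a mean of 0.594 ± 0.147 (SD, n = 3), a log2 difference of -1.08 (limma adjusted p = 0.00320). Serpine2 passed the filter through WT alone, and its edgeR adjusted p was 0.00855. The partners of the annexin A2 complex, a cell-surface docking site for tissue plasminogen activator and plasminogen, went opposite ways. Anxa2 rose from 21.1 ± 10.9 to 62.1 ± 7.2 (log2 difference 1.63, limma adjusted p = 0.00254), and S100a10 fell from 26.9 ± 7.2 to 8.54 ± 1.6 (log2 difference -1.53, limma adjusted p = 7.23e-04). Plaur, Plgrkt and Thbs1, at log2 differences of -0.46, -0.35 and -0.36, were not called.

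Around Nos3, 9 genes of the nitric oxide list were tested, of which 2 were called lower and 3 higher. Cav1, which encodes the caveolar protein that binds and restrains the synthase, had a log2 difference of -1.502 (limma adjusted p = 0.00965) with overlapping groups, and edgeR did not call it (edgeR adjusted p = 0.0670). Called higher were Nostrin, a trafficking partner of the synthase (log2 difference 1.05, limma adjusted p = 0.00587), Gch1, for the first enzyme of its cofactor synthesis (0.89, 0.00426), and Ddah2, assigned to the breakdown of its endogenous inhibitors (0.66, 0.0402), of which edgeR did not call Ddah2 (edgeR adjusted p = 0.0805). edgeR called 3 of 14 genes of this list, 1 lower and 2 higher, and without a filter limma called 3 as well.

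Around Edn1 and Ece1, the second converting enzyme gene Ece2 and the endothelin-degrading neprilysin gene Mme were called higher, with log2 differences of 0.47 and 0.94 (limma adjusted p = 0.0314 and 0.0236); edgeR did not call Mme (edgeR adjusted p = 0.0982). The receptor gene Ednrb was not called, at 5.20 ± 1.42 for WT (SD, n = 4) against 4.72 ± 0.89 for Ngfr KO (SD, n = 3). Ednra had values of at most 0.0803 ± 0.0499 as a group mean and failed the filter. The 4 calls among the 5 tested genes of the list were unstable: edgeR called 2, the fit without WT replicate 4 left 2, and the fits without a filter or without Ngfr KO replicate 1 or 3 left 1. Ece1 was called in each of these.

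Plvap belongs to the caveolae and diaphragms list, of whose 8 genes, all tested, 5 were called lower and none higher (median log2 difference -1.12). Cavin2 had the lowest log2 difference, at -1.98 (limma adjusted p = 5.62e-04), followed by Cav1 at -1.502 and Cavin1 at -1.38 (limma adjusted p = 4.37e-04), genes for the coat of caveolae. Cavin1 passed the filter through WT alone (edgeR adjusted p = 0.00266), and edgeR did not call Cav1. Cavin3, by contrast, was at 10.4 ± 4.2 for WT (SD, n = 4) against 11.1 ± 0.7 for Ngfr KO (SD, n = 3) and was not called.

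**Figure D4:**
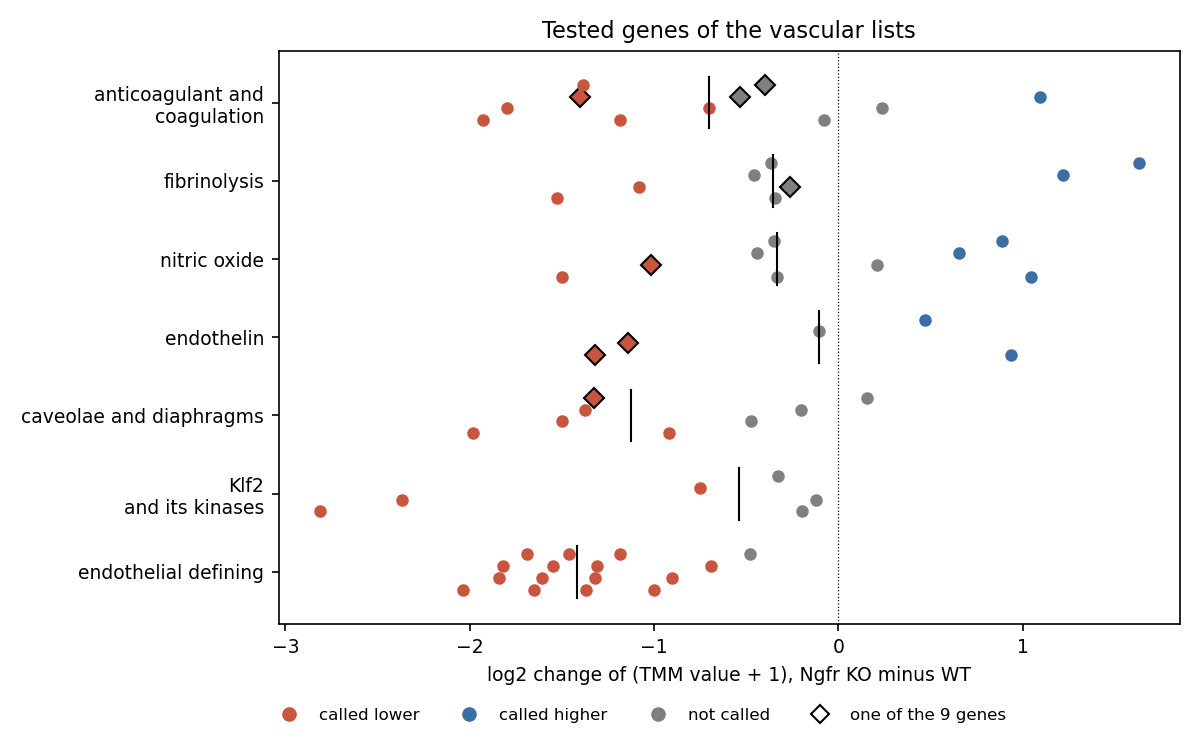
Log2 change of (TMM value + 1), Ngfr KO minus WT, of every tested gene in 6 vascular lists and in the endothelial defining markers; red and blue points were called lower and higher, grey points were not called, diamonds are genes among the 9, and vertical bars are list medians. The endothelial markers (median -1.42) and the caveolae list (-1.12) lie to the left, while the coagulation, fibrinolysis, nitric oxide and endothelin lists hold calls on both sides.

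For each tested gene of the 9, the tested gene with the most similar profile was taken as the one with the smallest root mean square difference of log2(value + 1), centred per gene, over the 7 samples. It was Sema3d for Thbd (0.190), Lrrc8a for Procr (0.0963), Cd247 for Tfpi (0.0870), Akap12 for Plat (0.216), Tmpo for Nos3 (0.103), Prss23 for Edn1 (0.113), Nudt4 for Ece1 (0.0691) and C1qtnf7 for Plvap (0.0886). Prss23, the gene nearest to Edn1, had 9.43 ± 6.18 for WT (SD, n = 4) against 3.77 ± 3.03 for Ngfr KO (SD, n = 3). These genes were picked for their likeness, so the likeness is no separate result. Each profile has only 7 samples, and these samples share their genotype split.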

How the data were processed

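Expression was measured by RNA-seq in 7 pooled samples of sorted FDCs, 4 WT and 3 Ngfr KO, grouped and numbered by title. SMART-Seq v4 served for cDNA amplification and Nextera XT for the libraries, per the labels' protocols. The submitters' processing notes list bcl2fastq 2.20.0.422 and mm10; the aligner, counting program and annotation are not given in the sources used here. The authors deposited normalised signal per gene, called TMM in the table's name. Each column consisted to 100% of whole multiples of 1 step (tolerance 0.01 reads), which recovered the reads. Amplified reads without molecular identifiers are not independent molecules.

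The table was fitted with limma 3.58.1 (R 4.3.3; eBayes with trend, pseudocount 1, no covariates). Genes failing the filter that were needed (F3, Ngfr) were added to the fit singly. Alternatives were pseudocounts of 0.1 and 5, no filter, a filter of 10, quantile normalization, median ratio scaling, edgeR 4.0.16 on recovered reads (filterByExpr, its own TMM factors; it called 2551 of 16751 genes), the replicate number as a block, other denominators, and leaving out each replicate. Other denominators for Klf2 and Klf4 were added after seeing the data. Scripts were tested on simulated data.

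Identifiers were matched to GENCODE M21 (GRCm38): 21118 matched and 58 did not. The members, lists and tests were chosen with earlier results of these data known. Genes named are the 9, Ngfr, Klf2 and Klf4, the tested genes of the endothelin and fibrinolysis lists (1 of the latter is not reported here), in each other list the called genes with the largest changes (at most 3 in each direction), and the most similar gene for each tested member. Any further gene was picked once its values were known. Listed genes absent from the table were not analysed here.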

Additional observations from a re-analysis of the deposited data

Results flagged for a closer look

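In 1 of 20 results examined (the values and marker shares of the 9 genes, Ngfr and the endothelial marker sum), 1 of the 4 WT samples lay far from the others for the range of its group, and chance gives about 1 such result. It was the share of Nos3 in the endothelial marker sum, 1.33% in WT replicate 4 against 0.608% to 0.683% in the other WT samples. The gap took 0.895 of the range, above Dixon's critical value for 4 samples. Without that sample the Nos3 shares of the genotypes still did not overlap, at a log2 ratio of -0.78 against -1.05 with it.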

How the results depend on the processing

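The log2 difference of each of the 9 genes was below 0 in all 15 alternatives to the limma fit. Those of Tfpi, Plat and F3 came as near to 0 as -0.11, -0.04 and -0.03 and were never called. How many of all tested genes kept their sign is not given here. Of the 5 calls, those of Thbd, Ece1 and Plvap held throughout, that of Nos3 was lost under a filter asking for a value of 10 in 3 samples (adjusted p = 0.135, added to a fit of 1297 genes), and that of Edn1 held in 7. The number called was 3 under that filter, which called 535 genes in all (67.1% of them higher, against 53.7% of the 2844 in the reported fit), and 4 to 6 when 1 replicate was left out, where 1614 to 3006 genes were called. The overall count fell by more than 1.5 times without WT replicate 1 (1870), Ngfr KO replicate 1 (1803) or Ngfr KO replicate 2 (1614); the cause was not tested.

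The Ngfr call was lost with a pseudocount of 0.1 (log2 change -1.26), without a filter and with the filter of 10 (-0.52 in both), with quantile normalization (-0.47), median ratio scaling (-0.49) and edgeR (-1.55). It was -0.66 to -0.41 across the fits without 1 replicate, and was called in 1 of them. Deviations of same-numbered samples from their group means had correlations across genes of 0.298, -0.0593 and -0.0108. The first was the highest of all pairs, but not every sample correlated best with its own number. So few correlations cannot decide whether the numbers pair the samples. With the replicate block, 2717 genes and 4 of the 9 were called, Edn1 had an adjusted p of 0.0570, and Ngfr a log2 change of -0.45 without a call.

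Relative to the endothelial markers, 3 of the 9 genes had groups that did not overlap, where 79.8% of all tested genes had such groups. The number was 3 with Cdh5 alone (Plat in, Nos3 out), 2 with the geometric mean (Nos3 out) and 3 to 4 without 1 replicate. Thbd became separated and lower without WT replicate 4 (log2 ratio -0.58), Ece1 without WT replicate 2 (-0.70) or Ngfr KO replicate 1 (-0.73) and Edn1 without Ngfr KO replicate 2 (-2.12), and Plat separated and higher without WT replicate 3 (1.39). Reads were fewest for F3 and, in Ngfr KO, for Nos3 and Edn1.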

Other observations

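Receptors and makers of other vasoactive signals were not of 1 direction either. Of 7 tested genes in that list, 3 were called higher and 2 lower; the count was 2 without Ngfr KO replicate 2 and 3 without Ngfr KO replicate 3. Ramp3, below a value of 1 in WT, passed the filter through Ngfr KO alone and cannot pass it with only 2 Ngfr KO samples; its edgeR adjusted p was 0.00734. The adrenomedullin receptor partners diverged: Ramp2 fell from a WT mean of 33.9 ± 5.2 (SD, n = 4) to a mean of 12.6 ± 3.7 (SD, n = 3), a log2 difference of -1.39 (limma adjusted p = 0.00101), while Ramp3 rose from 0.363 ± 0.217 to 3.17 ± 0.33, a log2 difference of 1.62 (limma adjusted p = 1.52e-04). The receptor core gene Calcrl had 14.9 ± 2.4 and 13.9 ± 4.3 and was not called, and the ligand gene Adm rose by 0.86 on the log2 scale (limma adjusted p = 0.0154). Ptgs1, for the constitutive cyclooxygenase, fell from 1.32 ± 0.38 to 0.156 ± 0.059 (log2 difference -0.99, limma adjusted p = 0.00117). Ptgs1 passed the filter through WT alone, and its edgeR adjusted p was 0.00393. The prostacyclin receptor gene Ptgir had a log2 difference of 0.86 (limma adjusted p = 0.0207) with overlapping groups, and edgeR did not call it (edgeR adjusted p = 0.0619).

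The ratios of Thbd to Procr and to Tfpi also separated the genotypes, a comparison chosen after the values were seen and not tested. Thbd was apart on its own, as were 40.9% of all tested genes in either direction. How many other gene pairs separate was not counted. Thbd had 30.3% to 66.4% of the Procr value in WT and 17.6% to 28.3% in Ngfr KO, with WT replicate 4 nearest to the Ngfr KO samples. It had 52.1% to 98.2% of the Tfpi value in WT and 23.0% to 37.8% in Ngfr KO. These are ratios of TMM values with no gene length divided out. They describe these samples only and do not show which transcript was the more abundant.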
